A study of Rattus norvegicus with 6 samples.

Results

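Oligodendrocyte precursors were described in 4 single-cell RNA-seq libraries of adult spinal cord, 1 from intact cord and 1 each from cord collected 1, 3 and 7 days after a crush injury. A cell was taken as a precursor when Olig1, Olig2, Cspg5, Tnr, C1ql1, Lhfpl3 and Gpr17 together gave at least 10 UMIs (counted RNA molecules) per 10000 of that cell. It also had to hold fewer than 10 UMIs of Col1a1 and Dcn per 10000, at most 20 of C1qa and C1qb per 10000, and 0 UMIs of Foxj1, which excludes most fibroblasts, phagocytes and ependymal cells. This gate held 498 of the 26847 cells of the time course, 27 in the intact library, 78 at day 1, 177 at day 3 and 216 at day 7. The series as a whole holds 30699 cells in 6 libraries, and the other 2, from injected cords, were not used here.

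Per the labels, the animals were SD rats of 6 to 8 weeks, the cord was crushed at T10, 5 animals were used for each condition and a section of 5 mm was dissociated. No transgene, deletion or drug is given for these 4 groups. The intact library carries the same crush treatment text as the others, and it is called intact here from its title. Its cell names end in uninj where those of the other libraries carry the day. Of 28615 gene names, 7654 are of mouse clone or predicted-gene forms and 3708 others are absent from the rat RefSeq symbols and synonyms, so the labelled species could not be settled from the tables. Each group is 1 library, so no difference between days has a replicate check and no test was made. Intervals are 95% and cover counting error only, and a gene is called higher or lower between days where its summed level differed at least 2-fold.

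Oligodendrocyte precursors are glia that divide throughout adult life and give rise to the oligodendrocytes that wrap axons in myelin. Pdgfra, the receptor for platelet-derived growth factor, and Cspg4, the NG2 proteoglycan, mark the dividing precursor. Gpr17 and Bcas1 appear as a precursor commits to the lineage, ahead of Enpp6, Mbp and the other myelin genes. After spinal cord injury these cells are known to divide near the lesion, to contribute chondroitin sulphate proteoglycans to the scar and to supply new oligodendrocytes.

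The 4 libraries held 9661552 to 72515788 UMIs. The median UMI count of a gated precursor was 3393 in the intact library, 7397.5 at day 1, 4930.0 at day 3 and 2689.5 at day 7. Counts per precursor, called depth below, were thus highest at day 1 and lowest at day 7. Median mitochondrial shares of precursors lay between 2.70% and 3.94%, against 2.28% to 2.99% in the cells outside the gate. Pairs of libraries shared 20 to 91 cell barcodes, with 0 identical profiles among them.

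The label was checked on Sox10, the lineage's transcription factor, Pdgfra and Cspg4, none of which the gate used. At least 1 of these 3 genes had a UMI in 27 of 27, 72 of 78, 160 of 177 and 189 of 216 precursors of the intact, day 1, day 3 and day 7 libraries. Sox10 stood at 409, 246, 254 and 344 CPM (counts scaled to a library sum of 1000000), against 0.627, 1.18, 0.518 and 1.37 CPM in cells outside the gate. After thinning each cell to 1000 UMIs, Sox10 was found in 37.0%, 17.9%, 22.6% and 30.6% of the precursors and in at most 0.160% of the endothelial cells, 0.122% of the phagocytes and 0.362% of the neutrophils of any library. These markers, independent of the gate, were thus far higher in the gated cells of all 4 libraries. Of the genes that chose the cells, at least 5 of the 7 were detected in 63.0%, 78.2%, 90.4% and 81.5% of the precursors, which is a description of the gate.

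The cells nearest the threshold differed between libraries. The lowest panel level inside the gate was 23.8 per 10000 in the intact library, 10.2 at day 1, 10.9 at day 3 and 10.6 at day 7, and the highest outside it was 8.38, 9.59, 9.68 and 8.26. Panel levels under 20 per 10000 were seen in 0, 17, 5 and 5 gated cells, and levels from 5 to 10 in 3, 20, 13 and 17 cells left outside. Day 1 thus had more cells close to the threshold than the other days, and 14 of its 17 low cells had a UMI of Sox10, Pdgfra or Cspg4.

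RNA of other cell types was present in the precursors. Phagocyte markers (13 genes) summed to 1100 CPM in the intact precursors, 1070.0 at day 1, 1926.5 at day 3 and 2815 at day 7, against 15207 to 48133 CPM outside the gate. All 13 had a UMI in the precursors of each library, and their sum was highest at day 7. Neutrophil markers (10 genes) summed to 597, 5442, 141 and 2728 CPM, against 10634, 11643, 1470.4 and 12512 CPM outside, with S100a8 and S100a9 the highest in each library. At day 1 this sum was above the 3723 CPM of the 6 precursor markers Pdgfra, Olig1, Olig2, Cspg5, Tnr and Gpr17. The median precursor of day 1 held 5.99 per 10000 and the highest 1918 per 10000, and 0, 3, 2 and 4 precursors from intact to day 7 held at least 50. Astrocyte markers (12 genes) summed to 1415, 1256, 856 and 808 CPM, above the 374, 581, 120.1 and 138 CPM outside the gate. They were led by Aldoc in every library, while Gjb6 was at 0 throughout and Aqp4 and Gja1 at 0 in the intact and day 3 precursors. The mature oligodendrocyte markers (9 genes) summed to 35.1, 43.5, 511 and 457 CPM, against 246, 101, 93.9 and 78.7 CPM outside, so the sum was higher in precursors at days 3 and 7. Most of that sum was 1 gene, Cldn11, at 496 CPM at day 3 and 339 at day 7. The next gene, Mag, stood at 3.66 and 32.3 CPM, so the higher sum does not describe the set. Cldn11 also led at day 1, and Ermn and Aspa were at 0 except at day 7. Endothelial markers (12 genes) summed to 256 to 912 CPM inside against 2288 to 10621 CPM outside. Neuronal markers (12 genes) summed to 316, 621, 313 and 184 CPM, above the 69.6, 110, 28.1 and 18.9 CPM outside, led by Tubb3 and then Snap25, while Rbfox3, Gad2, Slc17a6, Slc32a1 and Chat were at 0 in all 4. T cell markers did not exceed 5.49 CPM. The part these other RNAs play in the results below was not tested, and the level outside the gate is given beside a gene where it matters. That level pools all other cell types, and their mix differed between libraries. Gated phagocytes, for example, were 2125 of 7360 cells at day 1 and 5138 of 9263 at day 3. Ratios and medians outside the gate therefore include changes in this mix, whose part was not tested.

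Precursors made up a larger share of the recovered cells at each later day. They were 27 of 2757 cells in the intact library (0.979%, exact interval 0.646% to 1.42%), 78 of 7360 at day 1 (1.06%, 0.839% to 1.32%), 177 of 9263 at day 3 (1.91%, 1.64% to 2.21%) and 216 of 7467 at day 7 (2.89%, 2.52% to 3.30%). The intact and day 1 intervals overlapped, and those of days 1, 3 and 7 did not. A share among recovered cells depends on how many other cells were recovered, so it is no measure of precursors per length of cord. The order of days 3 and 7 also depended on the phagocyte bound. With at most 5 instead of 20 C1q UMIs per 10000 the shares were 0.725%, 1.005%, 1.43% and 1.07%, and with no such bound 1.05%, 1.09%, 2.04% and 3.12%. Cells with 0 C1q UMIs were 25.9%, 38.5%, 20.3% and 15.3% of the precursors, the smallest share at day 7, where the median depth was also lowest. The part of depth and of phagocyte RNA in this order was not tested.

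**Figure D1:**
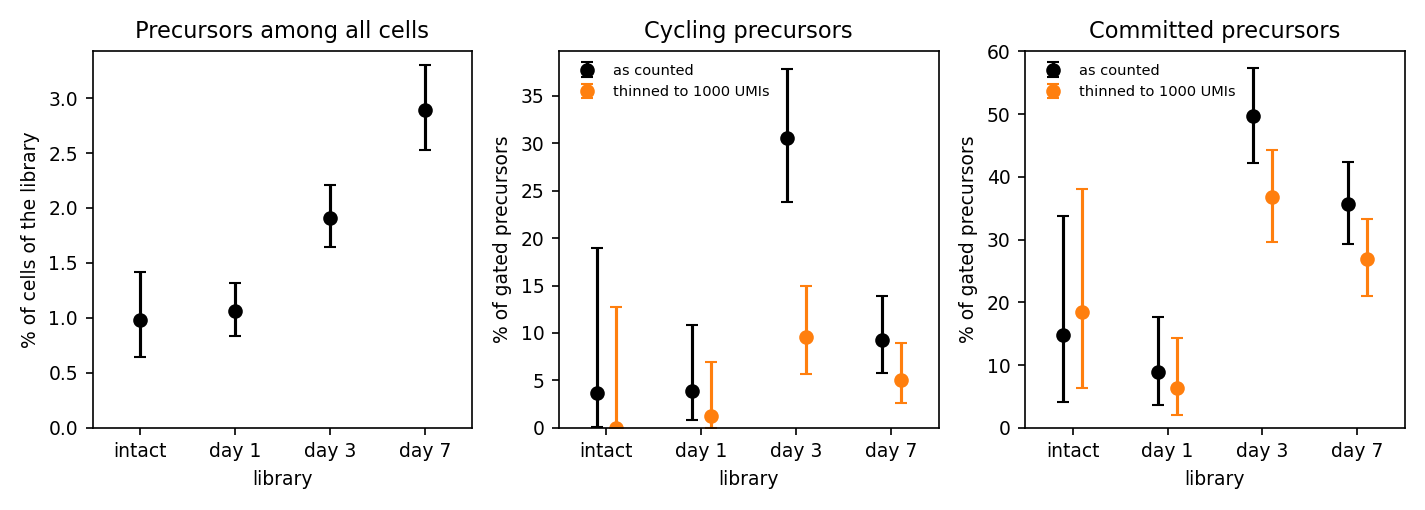
Share of gated precursors among all cells of each library (left), and shares of precursors with a UMI of Mki67 or Top2a (middle) and with more UMIs of Gpr17 and Bcas1 than of Pdgfra and Cspg4 (right), in %, with exact 95% intervals; black points are as counted and orange points after thinning every cell to 1000 UMIs. Precursors reached 2.89% of the cells at day 7, cycling cells 30.5% of precursors at day 3, and committed cells 49.7% of precursors at day 3.

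Dividing precursors were concentrated at day 3. A precursor was called cycling when it held a UMI of Mki67, the Ki-67 antigen, or Top2a, the topoisomerase that untangles replicated DNA. Cycling cells were 1 of 27 in the intact library (3.70%, 0.0937% to 19.0%), 3 of 78 at day 1 (3.85%, 0.800% to 10.8%), 54 of 177 at day 3 (30.5%, 23.8% to 37.9%) and 20 of 216 at day 7 (9.26%, 5.75% to 13.9%). The day 3 interval lay above those of the other 3 libraries. With each cell thinned to 1000 UMIs, which removed no precursor, the shares were 0%, 1.28%, 9.61% (5.70% to 14.9%) and 5.09% (2.57% to 8.93%), and the day 3 and day 7 intervals then overlapped. A count of 0 among 27 thinned cells still allows up to 12.8%.

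The share in other cells of the same libraries differed by cell type. Among endothelial cells, gated on their own markers and able to divide after injury themselves, a UMI of either gene was seen in 0.172%, 0.802%, 4.91% and 0.490% of cells as counted, at median depths of 2872, 4393, 3962 and 2507 UMIs. After thinning the endothelial shares were 0.0862%, 0.0802%, 1.04% and 0.0816%, so the precursor share was above them at days 3 and 7. Phagocytes gave 0.701%, 7.48%, 13.6% and 3.09% as counted, at median depths of 3269.5, 8962, 7832.5 and 4078 UMIs, and 0.467%, 1.32%, 3.25% and 0.873% after thinning, so at day 1 they were not below the precursors. Neutrophils, whose gate itself holds cycling cells, gave 8.77%, 18.8%, 6.52% and 13.8% as counted, and 1.75%, 5.32%, 2.72% and 5.43% after thinning. The precursor share was below that of neutrophils in the intact, day 1 and day 7 libraries and above it at day 3. Without precursors carrying vascular or neutrophil markers the cycling share was 4.17%, 4.48%, 30.2% and 7.78%. Requiring 2 UMIs of the pair left 1, 0, 31 and 13 precursors, the last 2 being 17.5% and 6.02%. Cycling precursors were deeper than the rest, with medians of 8344.5 against 4462 UMIs at day 3 and 4033 against 2635.5 at day 7.

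Committed precursors were few at day 1 and most frequent at day 3. A cell was called committed when Gpr17 and Bcas1, a receptor and a cytoskeletal protein of the committed stage, together had more UMIs than Pdgfra and Cspg4. These were 4 of 27 cells in the intact library (14.8%, 4.19% to 33.7%), 7 of 78 at day 1 (8.97%, 3.69% to 17.6%), 88 of 177 at day 3 (49.7%, 42.1% to 57.3%) and 77 of 216 at day 7 (35.6%, 29.3% to 42.4%). Thinned to 1000 UMIs the shares were 18.5%, 6.41%, 36.7% (29.6% to 44.3%) and 26.9% (21.1% to 33.3%). Day 1 lay below days 3 and 7 on both scales, and the intervals of days 3 and 7 overlapped in both.

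The split is a range and not a sharp boundary. Gpr17 stood at 363, 49.5, 409 and 391 CPM and Bcas1 at 210.5, 97.5, 366 and 312 CPM in intact, day 1, day 3 and day 7 precursors, so both were lowest at day 1. In the intact library 1 cell held 41.9% of the Gpr17 UMIs and 1 cell 38.9% of the Bcas1 UMIs, and a single cell of day 1 held 48.5% of the Gpr17 UMIs there. Pdgfra stood at 620, 350, 361 and 417 CPM and Cspg4 at 234, 94.5, 87.9 and 84.0 CPM, both highest in the intact library. UMIs of both pairs were found together in 18, 41, 133 and 88 cells. Cells within 1 UMI of a tie numbered 11, 23, 56 and 115, and 1, 6, 10 and 15 cells had none of the 4 genes. More than 1 cell in every 4 of each library thus lay near the boundary.

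**Figure D2:**
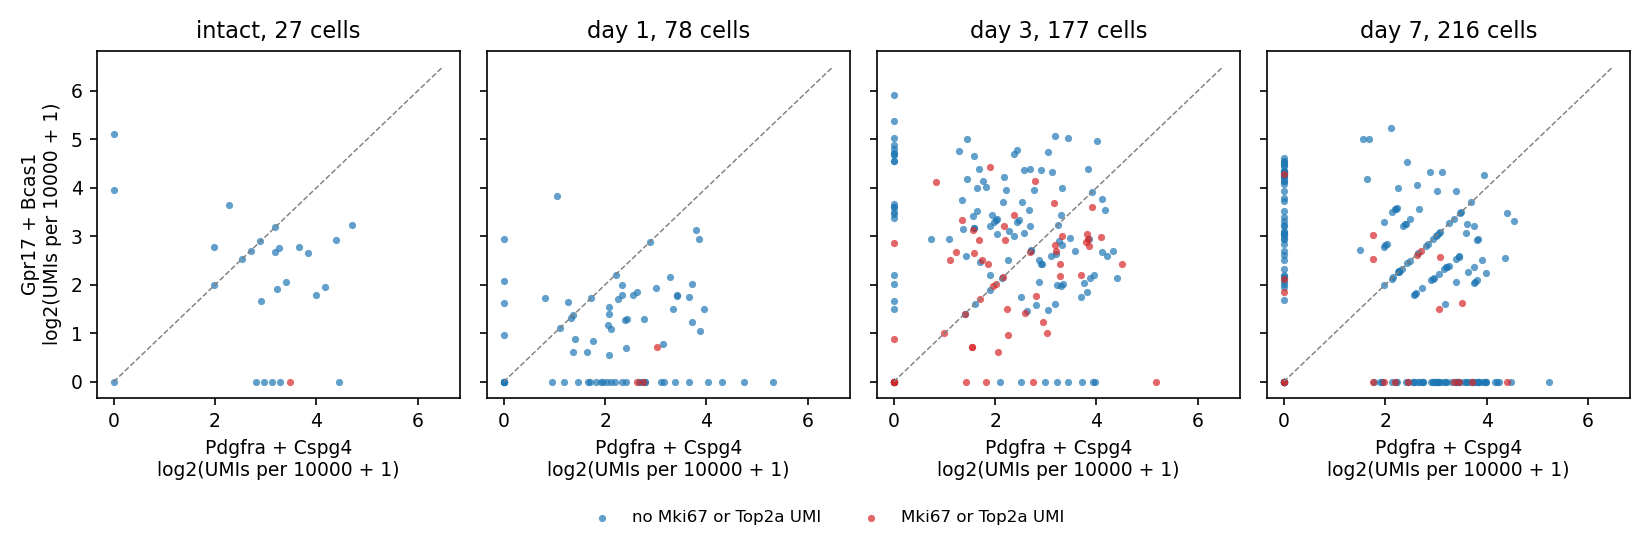
Level of Pdgfra plus Cspg4 (horizontal) against Gpr17 plus Bcas1 (vertical) in each gated precursor, both as log2(UMIs per 10000 + 1), with 1 panel a library and red for cells with a UMI of Mki67 or Top2a; cells above the dashed line were called committed. At day 1, 7 of 78 cells lie above the line, at day 3, 88 of 177, and red cells number 3 and 54 in the same panels.

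Committed and cycling cells overlapped in part. At day 3, 17 of 88 committed cells were cycling (19.3%, 11.7% to 29.1%) against 37 of 89 others (41.6%, 31.2% to 52.5%). At day 7 the values were 5 of 77 (6.49%, 2.14% to 14.5%) and 15 of 139 (10.8%, 6.17% to 17.2%). After thinning they were 3 of 65 and 14 of 112 at day 3, and 2 of 58 and 9 of 158 at day 7. The share was lower in committed cells at both days, but the intervals were apart only at day 3 before thinning, and overlapped at day 7 and, once thinned, at both days.

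Precursors of day 3 held less RNA of several reactive glia, glycolysis and interferon response genes than those of day 1, and more RNA of cell division genes and of several lineage genes. Counts were summed over the gated cells of a library and expressed as CPM. Of 4958 genes with at least 50 UMIs over both days, 402 were at least 2-fold higher at day 3 (8.11% of those measured) and 230 at least 2-fold lower (4.64%), around a median log2 ratio of 0.08.

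The gene with the largest ratio among those named as higher at day 1 was Vgf, a secreted neuropeptide precursor best known from neurons. It stood at 0 CPM in the intact library, 2072 at day 1, 65.9 at day 3 and 0 at day 7. Vgf was found in 47 of 78 precursors at day 1 and was 31.4-fold lower at day 3 (24.8 to 40.4), where 1 cell held 54.2% of its UMIs. Outside the gate it stood at 81.7 CPM at day 1 and 1.72 at day 3, so precursors held the higher level at both days. Il33, a nuclear alarmin cytokine, stood at 11.7, 1312, 85.1 and 24.2 CPM and was 15.4-fold higher at day 1 than at day 3 (12.4 to 19.3). It was found in 56 of 78 precursors at day 1 and in 14 of 216 at day 7.

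Aldh1a3, which makes retinoic acid, stood at 0, 401, 42.1 and 3.23 CPM and was 9.52-fold higher at day 1 than at day 3 (6.94 to 13.3). Tnfrsf12a, the receptor for the cytokine TWEAK, stood at 35.1, 428, 42.1 and 11.3 CPM, a ratio of 10.2 (7.42 to 14.2), and cells outside the gate also held it, at 136 CPM at day 1 and 57.0 at day 3. Klk8, a secreted serine protease, stood at 11.7, 546, 76.9 and 27.5 CPM, a ratio of 7.11 (5.59 to 9.12), and 94.1% of its day 7 UMIs came from 1 cell. These 3 genes were highest in the day 1 library and low in the intact one.

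Tnc, Cd44 and Igfbp3 were also named by the rule as higher at day 1. Tnc, the matrix glycoprotein tenascin C, stood at 23.4, 225, 22.0 and 0 CPM, 10.2-fold higher at day 1 than at day 3 (6.63 to 16.5). Cd44, a hyaluronan receptor, stood at 0, 305, 54.0 and 8.08 CPM, a ratio of 5.64 (4.20 to 7.67), beside 194 and 92.8 CPM outside the gate at days 1 and 3. Igfbp3, which binds insulin-like growth factors, stood at 105, 347, 56.7 and 69.5 CPM, a ratio of 6.11 (4.60 to 8.22). Tnc and Cd44 were at or near 0 by day 7, whereas Igfbp3 was not.

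Of the remaining genes that were higher at day 1, Ptprn belongs to secretory granules, Mt2 is a metal-binding metallothionein, Aldoa is an aldolase of glycolysis and Spry2 restrains growth factor signalling. Ptprn stood at 58.5, 330.2, 59.5 and 27.5 CPM, 5.55-fold higher at day 1 than at day 3 (4.19 to 7.44). Mt2 stood at 164, 2193, 642 and 349 CPM, a ratio of 3.42 (3.12 to 3.75), and outside the gate the same ratio was 5.19. Aldoa stood at 643, 1249, 321 and 354 CPM, a ratio of 3.89 (3.43 to 4.42), against 1.47 outside. Spry2 was lowest at day 3, at 339, 318, 68.6 and 173 CPM, a ratio of 4.63 (3.55 to 6.12).

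Genes of mitosis and DNA replication led in the other direction. Ube2c, which drives exit from mitosis, stood at 0, 1.50, 284 and 87.2 CPM, and with 1 UMI at day 1 the ratio of day 3 to day 1 was 189 (33.7 to 7491). Pclaf, a partner of the replication clamp, stood at 70.2, 6.00, 365 and 145 CPM, a ratio of 60.8 (23.6 to 224). Cenpa, the centromeric histone, stood at 11.7, 0, 300.2 and 72.7 CPM and was at least 66.7-fold higher at day 3, taking 3 counts in the day 1 library as the floor. Pbk, Birc5, Lockd, Cdca3 and Cks2 stood at 1.50 to 16.5 CPM at day 1 and at 195 to 312 CPM at day 3. All of these were highest at day 3 and lower again at day 7.

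Stmn1, which destabilises microtubules, stood at 152, 82.5, 1251 and 478 CPM, 15.2-fold higher at day 3 than at day 1 (11.6 to 20.2). H2az1, a histone variant, stood at 538, 509, 2463 and 1318 CPM, a ratio of 4.84 (4.32 to 5.44), and Selenoh, a nuclear selenoprotein, stood at 81.9, 88.5, 573 and 231 CPM, a ratio of 6.47 (4.95 to 8.60). Outside the gate these ratios were 2.81, 1.63 and 2.08. Fxyd6, a regulator of the sodium pump, stood at 292, 75.0, 579 and 422 CPM, 7.72-fold higher at day 3 (5.78 to 10.5), and outside the gate it was under 6.65 CPM in each library. Cells that were neither cycling nor committed also held more Stmn1 and Fxyd6 at day 3, by 12.5-fold and 7.65-fold, and less Vgf and Tnc, so for these genes the difference was also present outside the cells called cycling or committed. A cell with 0 UMIs of Mki67 and Top2a may still be dividing. In the same cells 7 of 11 measured S phase genes were at least 2-fold higher at day 3 and 0 lower (median log2 ratio 1.38). The part of dividing cells that the call missed was not tested.

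**Figure D3:**
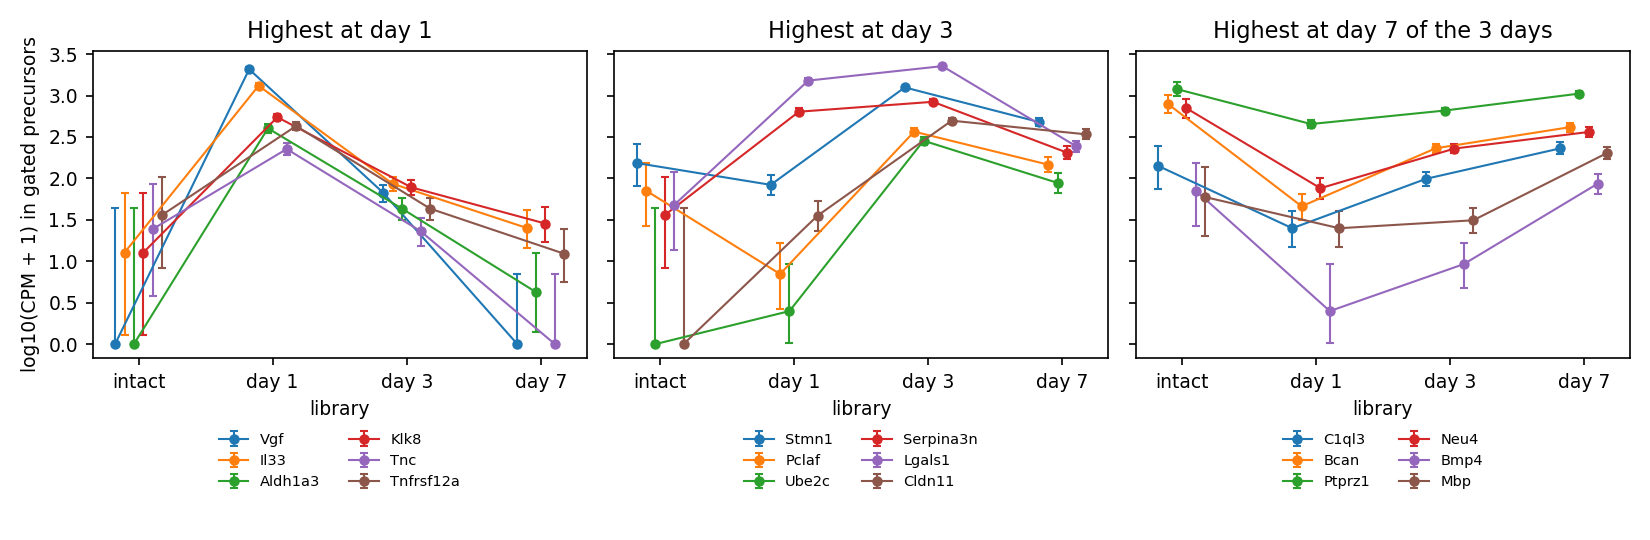
Level of 18 genes in gated precursors of each library, as log10(CPM + 1) with exact Poisson 95% intervals, grouped by the injured day on which each was highest; the lines join libraries of different animals. Vgf, Il33, Aldh1a3, Klk8, Tnc and Tnfrsf12a peak at day 1, Stmn1, Pclaf, Ube2c, Serpina3n, Lgals1 and Cldn11 at day 3, and C1ql3, Bcan, Ptprz1, Neu4, Bmp4 and Mbp at day 7 of the 3 injured days.

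The gene lists include several of the genes named above and use the same counts, so they are not separate support. Members with at least 20 UMIs over both days were counted, and over all such genes 11.3% were at least 2-fold higher at day 3 and 6.41% lower. All 21 measured genes of G2 and M phase were higher at day 3, 8 of them from 0 at day 1, with a median log2 ratio of 4.57 when 3 counts stand for 0, beside 1.71 in cells outside the gate. Of 20 measured S phase genes 11 were higher and 0 lower (median 1.07, outside -0.70). Rrm2, a subunit of the enzyme that makes DNA precursors, stood at 23.4, 15.0, 155 and 46.8 CPM, lowest at day 1 and highest at day 3.

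Of 25 precursor identity genes 7 were higher at day 3, 0 lower and 18 within 2-fold, with a median of 0.54 against -0.52 outside the gate. Neu4, a sialidase, stood at 702, 75.0, 228 and 362 CPM, 3.04-fold higher at day 3 than at day 1 (2.23 to 4.20). Sox8, a transcription factor related to Sox10, stood at 304, 45.0, 157 and 187 CPM, a ratio of 3.50 (2.36 to 5.34). Sox10 itself differed by a ratio of 1.03 (0.849 to 1.26). With the panel minimum at 20 per 10000 in place of 10 the list's median was 0.36, and without the 10, 28, 42 and 40 cells that carried astrocyte markers it was 0.82.

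Of 14 measured genes of committed precursors 6 were higher at day 3 and 0 lower (median 0.88, outside -0.24). Lims2, an adhesion adaptor, stood at 807, 108, 439 and 514 CPM, a ratio of 4.07 (3.17 to 5.28). Mycl, of the Myc family, stood at 70.2, 4.50, 75.0 and 63.0 CPM, and with 3 UMIs at day 1 the ratio was 16.7 (5.51 to 82.5). Of 9 measured myelin genes 3 were higher and 1 lower. Cldn11, the tight junction protein of myelin, stood at 0, 34.5, 496 and 339 CPM, 14.4-fold higher at day 3 (9.48 to 22.9), in 19 of 78 and 118 of 177 cells. Cnp, an enzyme of the myelin sheath, stood at 526, 246, 704 and 980.5 CPM, a ratio of 2.86 (2.41 to 3.41), and Trf, transferrin, stood at 70.2, 197, 85.1 and 87.2 CPM and was 2.31-fold lower (1.76 to 3.05). Cldn11 and Cnp were thus higher at day 3 than at day 1, while Mbp, at 24.0 and 30.2 CPM, differed by less than 2-fold. Cnp was also present in the intact and day 1 precursors, so these values show no order of onset.

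Stress lists were lower at day 3. Of 25 measured reactive glia genes 12 were lower and 0 higher (median -0.98), and the median in cells outside the gate was -1.15. Lcn2, an iron-sequestering acute phase protein, stood at 11.7, 349.7, 2.75 and 64.6 CPM, with 66.1% of its day 1 UMIs in 1 cell. Of 23 measured glycolysis and hypoxia genes 15 were lower and 1 higher (median -1.21, outside -0.77). Adm, a vasodilator peptide induced by hypoxia, stood at 23.4, 81.0, 11.0 and 9.69 CPM, 7.38-fold higher at day 1 than at day 3 (3.90 to 15.2), and Slc16a3, a lactate exporter, at 0, 39.0, 5.49 and 4.85 CPM, a ratio of 7.11 (2.86 to 21.1). Cells outside the gate held more Slc16a3 than precursors, 116 CPM at day 1 and 54.6 at day 3. Of 15 measured interferon response genes 10 were lower and 0 higher (median -1.56, outside -0.81). Ifit3, an antiviral protein, stood at 11.7, 120.1, 14.6 and 50.1 CPM, but 1 cell held 52.5% of its day 1 UMIs, while Irf7, a factor that induces interferon, stood at 0, 57.0, 8.24 and 17.8 CPM, from 12 cells at day 1.

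Of 16 measured cytokine and chemokine genes 6 were lower and 2 higher, with a median of -0.65 that became 0.41 with the panel minimum at 20 per 10000. Cholesterol synthesis had 4 lower and 0 higher of 23 (median -0.12), whereas the same list had a median of -1.19 outside the gate. Immediate early genes had 4 higher and 2 lower of 22 (median 0.61, outside -0.30). Heat shock genes had 3 lower of 26 and oxidative phosphorylation 1 higher of 28. Iron and oxidative stress genes had 4 lower and 0 higher of 19 (median -0.21, outside -0.10), lipid handling 5 higher and 2 lower of 21 (median 0.06), Notch, BMP and Wnt response genes 4 higher and 2 lower of 16 (median 0.22), antigen presentation 1 higher and 2 lower of 13 (median -0.49) and apoptosis 2 higher and 1 lower of 13 (median 0.11). Cell cycle brakes, matrix, growth factor receptors, ion channels and guidance genes had medians between -0.25 and 0.46, with 0 to 3 members past 2-fold in either direction.

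Among cell cycle brakes the members differed in direction. Cdkn1c, an inhibitor of cyclin-dependent kinases that accompanies differentiation, stood at 0, 13.5, 75.0 and 108 CPM, 5.56-fold higher at day 3 than at day 1 (2.79 to 12.6). Cdkn2c, an inhibitor of Cdk4 and Cdk6, stood at 46.8, 48.0, 165 and 109.8 CPM, a ratio of 3.43 (2.35 to 5.17). Ccnd2, a G1 cyclin, stood at 176, 224, 66.8 and 108 CPM and was 3.35-fold higher at day 1 (2.51 to 4.49). Day 3 therefore had more of both inhibitors and less of the cyclin than day 1.

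Precursors of day 7 held less RNA of division genes and of reactive glia genes than those of day 3, and more of several myelin genes. Of 4865 measured genes 109 were at least 2-fold higher at day 7 (2.24%) and 176 at least 2-fold lower (3.62%), together 5.86%, about a median log2 ratio of -0.02.

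Among the genes that were lower, Lgals1, galectin 1, stood at 46.8, 1513, 2260.5 and 242 CPM, 9.33-fold higher at day 3 than at day 7 (7.91 to 11.1). Outside the gate it stood at 2117 CPM at day 3 and 724 at day 7, a ratio of 2.92. Serpina3n, a secreted protease inhibitor, stood at 35.1, 636, 838 and 203.5 CPM, 4.12-fold higher at day 3 (3.42 to 5.00), against 4.10 and 1.81 CPM outside. It was found in 128 of 177 cells at day 3 and 27 of 216 at day 7, and 37.3% of the day 7 UMIs were in 1 cell. In cells neither cycling nor committed the ratio was 20.1. S100a10, a partner of annexin A2, stood at 58.5, 1190.1, 605 and 157 CPM, 3.86-fold higher at day 3 (3.12 to 4.83). Tubb6, a tubulin, stood at 0, 266, 139 and 29.1 CPM, a ratio of 4.78 (2.93 to 8.29), and Syt4, a synaptotagmin of secretory vesicles, at 23.4, 581, 254 and 56.5 CPM, a ratio of 4.48 (3.15 to 6.57). S100a10, Tubb6 and Syt4 were highest at day 1 and Lgals1 and Serpina3n at day 3.

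The named genes that were lower at day 7 also included several of mitosis. Cenpa was 4.13-fold higher at day 3 than at day 7 (3.02 to 5.77) and Ube2c 3.25-fold (2.43 to 4.43). Ccnb1, the mitotic cyclin B1, stood at 0, 0, 174 and 43.6 CPM, a ratio of 3.99 (2.65 to 6.21), and Racgap1, needed for the final separation of daughter cells, at 0, 4.50, 174 and 40.4 CPM, a ratio of 4.31 (2.83 to 6.82). Stmn1 was 2.62-fold higher at day 3 (2.31 to 2.98).

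Spry2, C1ql3 and Ntm were among the genes higher at day 7 than at day 3. Spry2 was 2.52-fold higher at day 7 (1.86 to 3.43), and C1ql3, a secreted synapse organiser, stood at 140.4, 24.0, 97.9 and 229 CPM, a ratio of 2.34 (1.81 to 3.04), with under 0.4 CPM outside the gate. Ntm, a cell adhesion protein, stood at 526, 69.0, 133 and 319.8 CPM, a ratio of 2.41 (1.94 to 3.01).

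Other genes named in this direction also had ratios above 1 in the cells outside the gate. Scand1 stood at 70.2, 79.5, 36.6 and 236 CPM, a ratio of 6.44 (4.51 to 9.38), and outside the gate the ratio was 3.85. Abhd2, a lipase, had a ratio of 3.38 (2.85 to 4.01) and 2.66 outside, Kdm6b, a histone demethylase, 3.74 (2.45 to 5.80) and 3.30, and Clasp2, a microtubule-binding protein, 3.35 (2.33 to 4.85) and 2.56. The nuclear RNA Malat1 stood at 90875, 46939, 24010.1 and 54456 CPM, a ratio of 2.27 (2.23 to 2.31), against 1.40 outside. Grcc10, Polr2l and Actb, the cytoplasmic actin, had ratios of 2.54, 2.31 and 1.95 beside 1.95, 1.34 and 1.36 outside, and Actb did not reach 2-fold. Whether a property of the day 7 library moves these genes was not tested.

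For day 7 against day 3 the lists again share genes and counts with the ratios above. Over all genes with at least 20 UMIs 4.3% were at least 2-fold higher at day 7 and 6.11% lower. Of 22 measured genes of G2 and M phase 20 were lower at day 7 and 0 higher (median -1.74), and of 20 S phase genes 11 were lower and 0 higher (median -1.09). Cells outside the gate had medians of -1.88 and -1.001. Of 22 reactive glia genes 12 were lower and 1 higher (median -1.16, outside -0.94). Vim, an intermediate filament protein, stood at 46.8, 384, 617 and 82.4 CPM, 7.49-fold higher at day 3 than at day 7 (5.63 to 10.2). Emp1, a membrane protein, stood at 0, 55.5, 46.7 and 3.23 CPM, and with 2 UMIs at day 7 the ratio was 14.4 (3.80 to 122). Both genes stood higher outside the gate than in precursors at days 3 and 7, Vim at 1292 and 425 CPM and Emp1 at 175 and 45.1 CPM.

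Of 18 measured genes of committed precursors 5 were higher at day 7 and 0 lower (median 0.44, outside 0.02). Bmp4, a ligand that newly committed oligodendrocytes secrete in mouse, stood at 70.2, 1.50, 8.24 and 85.6 CPM, 10.4-fold higher at day 7 than at day 3 (5.08 to 24.0), in 24 of 216 cells, while 83.3% of its intact UMIs came from 1 cell. Enpp6, a phosphodiesterase of newly forming oligodendrocytes, stood at 0, 0, 4.58 and 37.1 CPM, a ratio of 8.12 (3.02 to 27.3), in 14 cells. Tcf7l2, a Wnt pathway factor of the same stage, stood at 117, 19.5, 32.0 and 87.2 CPM, a ratio of 2.72 (1.75 to 4.29). In cells neither cycling nor committed the list had a median of -0.28 over 11 measured members.

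Of 12 measured myelin genes 6 were higher at day 7 and 0 lower (median 1.03, outside 0.47). Mbp, myelin basic protein, stood at 58.5, 24.0, 30.2 and 202 CPM, 6.69-fold higher at day 7 (4.53 to 10.1), with 36.8% of the day 7 UMIs in 1 cell. Mag, an adhesion protein of the inner myelin layer, stood at 0, 0, 3.66 and 32.3 CPM, a ratio of 8.82 (2.96 to 35.5), from 9 cells. Opalin stood at 0, 3.00, 1.83 and 29.1 CPM with 72.2% in 1 cell. The list depended on a few cells, and its median was 0.28 without the precursors with myelin markers, 0.34 with the panel minimum at 20 per 10000, 0.13 after thinning and -0.00224 with the C1q bound at 5 per 10000.

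Of 13 measured interferon genes 7 were higher at day 7 and 1 lower (median 1.02), as they were outside the gate (median 1.06). Usp18, which restrains interferon signalling, stood at 0, 24.0, 3.66 and 25.8 CPM, a ratio of 7.06 (2.28 to 29.0), from 10 cells. With the C1q bound at 5 the list's median turned to -0.44. Lipid handling had 6 higher and 0 lower of 22, among them Apoe, the lipid carrier, at 2012, 525, 1446 and 5419 CPM, beside 2284, 1059, 19521 and 69422 CPM outside the gate. Antigen presentation had 3 higher and 0 lower of 15 (median 0.53). Precursor identity had 0 past 2-fold of 25 (median 0.30, outside 0.36), glycolysis 0 of 19 and oxidative phosphorylation 0 of 28.

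**Figure D4:**
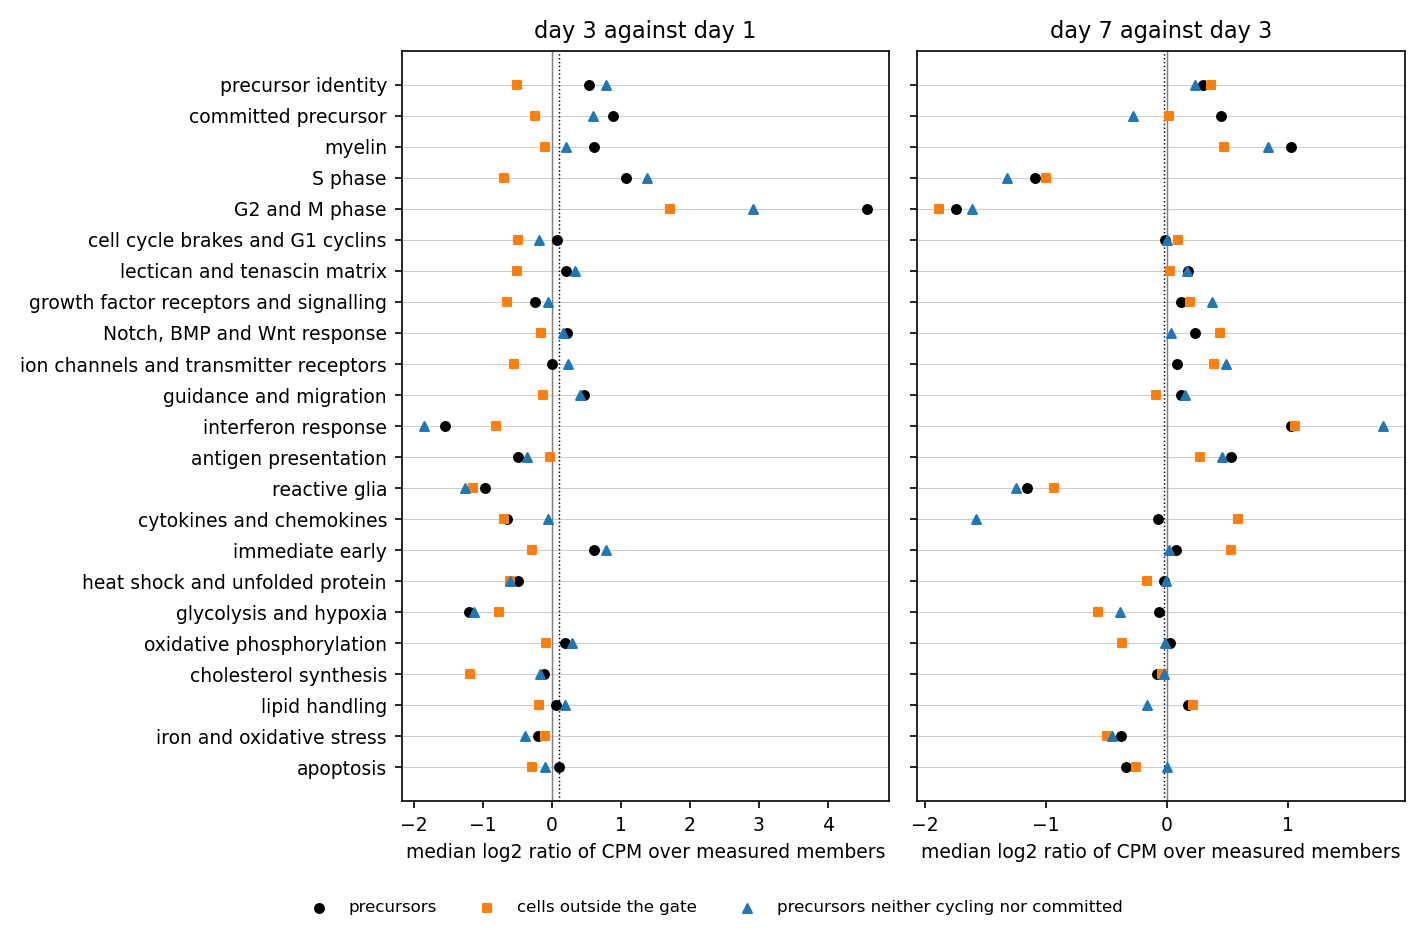
Median log2 ratio of CPM over the measured members of 23 gene lists, day 3 against day 1 (left) and day 7 against day 3 (right), in gated precursors (black), in cells of the same libraries outside the gate (orange) and in precursors neither cycling nor committed (blue); the dotted line is the median of all genes with at least 20 UMIs. G2 and M phase lies at 4.57 and then -1.74, reactive glia at -0.98 and -1.16, and precursor identity at 0.54 and 0.30 where the cells outside stand at -0.52 and 0.36.

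Day 7 set against day 1 spans the whole interval and shares its libraries with both other comparisons. Of 3900 measured genes 325 were at least 2-fold higher at day 7 (8.33%) and 282 at least 2-fold lower (7.23%). Bcan, the brain proteoglycan brevican, stood at 795, 45.0, 230 and 413.5 CPM, 9.19-fold higher at day 7 than at day 1 (6.28 to 13.9). C1ql3 was 9.55-fold higher (5.68 to 17.2), Stmn1 5.79-fold (4.33 to 7.87), and S100b, a calcium-binding protein of glia, at 1334, 332, 1202 and 1499 CPM, 4.52-fold (3.90 to 5.26). C1ql3 stood above the intact level at day 7, and Bcan stood below it. The intact values rest on 27 cells with 85491 UMIs, which limits the C1ql3 order in particular.

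In the other direction Vgf was at least 428-fold lower at day 7, with 3 counts in the day 7 library as the floor. Il33 was 54.1-fold lower (32.6 to 97.1), Tnfrsf12a 37.8-fold (18.1 to 94.9) and Klk8 19.9-fold (12.2 to 34.5), and Aldh1a3, with 2 UMIs at day 7, gave a ratio of day 1 to day 7 of 124 (34.0 to 1029.5). Outside the gate the same ratios were 19.5 for Il33, 2.86 for Tnfrsf12a, 1.46 for Klk8 and 4.58 for Aldh1a3. All 5 genes were at or below 35.1 CPM in the intact library too.

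Of all genes with at least 20 UMIs 10.7% were at least 2-fold higher at day 7 than at day 1 and 8.33% lower. Precursor identity had 12 higher and 0 lower of 25 (median 1.00, outside 0.21), and in cells neither cycling nor committed the median was 1.03. Committed precursor genes had 11 higher and 0 lower of 16 (median 1.68), and myelin genes 8 higher and 1 lower of 12 (median 2.42). In cells neither cycling nor committed both lists had 5 higher and 1 lower of 10, with medians of 0.67 and 1.09. Reactive glia had 19 lower and 1 higher of 24 (median -1.98, outside -1.95), and glycolysis and hypoxia 13 lower and 1 higher of 22 (median -1.24, outside -1.43). G2 and M phase had 12 higher and 0 lower of 13, a list whose median of 3.84 became -0.05 after thinning to 1000 UMIs.

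Several surface and matrix genes of the precursor were lowest at day 1 and stood higher, in order, at days 3 and 7. The summed panel that chose the cells was also lowest at day 1. Its medians were 52.3, 42.5, 71.7 and 76.0 per 10000 from intact to day 7. The part of the gate in the levels below was not tested. Ptprz1, a phosphatase receptor that carries chondroitin sulphate, stood at 1193, 452, 658 and 1053 CPM, 1.60-fold higher at day 7 than at day 3 (1.44 to 1.78). Vcan, the proteoglycan versican, stood at 620, 222, 369 and 462 CPM. Luzp2, a leucine zipper protein of these cells, stood at 421, 84.0, 127 and 202 CPM, and Ednrb, the endothelin receptor B, at 152, 13.5, 43.9 and 84.0 CPM. For all 4 the day 7 level was below that of the 27 intact cells, whose counts are the smallest of the 4 libraries. Chst11, which sulphates chondroitin, went the other way at 105, 119, 54.9 and 48.5 CPM, as did Tnc, described above. The matrix list, to which Ptprz1, Vcan, Chst11 and Tnc belong, did not follow this order as a set. At day 7 against day 1 it had 4 higher and 2 lower of 13 (median 0.01, outside -0.64).

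Receptors for transmitters gave a similar order in part. Gria2, an AMPA glutamate receptor subunit, stood at 316, 117, 179 and 360.2 CPM, 3.08-fold higher at day 7 than at day 1 (2.37 to 4.04). Kcnd2, a potassium channel, stood at 58.5, 31.5, 38.4 and 66.2 CPM, and Grm5, a metabotropic glutamate receptor, at 292, 94.5, 65.0 and 134 CPM, lowest at day 3. Cacng5, an auxiliary subunit of AMPA receptors, was the reverse, at 0, 57.0, 23.8 and 9.69 CPM. The list had 5 higher and 1 lower of 15 at day 7 against day 1 (median 0.65, outside 0.04).

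Guidance genes included Dcx, doublecortin of migrating cells, at 58.5, 3.00, 26.5 and 48.5 CPM, and Sema5a, a semaphorin, at 105, 13.5, 19.2 and 74.3 CPM, 3.87-fold higher at day 7 than at day 3 (2.26 to 6.82). Tubb3, a tubulin best known from neurons, stood at 187, 507, 261 and 121 CPM and was highest at day 1. Of 16 guidance genes 6 were higher and 2 lower at day 7 against day 1.

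Within a library, committed and other precursors differed in genes the split did not use, given here as a description because the same cells set the split. At day 7 committed cells held 663 CPM of Fyn, a kinase that starts myelination, against 116 in the others, 192 against 5.66 of Bmp4, 82.9 against 2.83 of Enpp6 and 1673 against 461 of Cnp. At day 3 Cnp stood at 883 against 507 CPM, while Enpp6 stood at 8.74 against 0. Cldn11 did not separate them at day 3, with 493 against 499 CPM, and did at day 7, with 637 against 116. Of the measured committed precursor genes 9 of 14 were at least 2-fold higher in committed cells at day 7, where 3.85% of all measured genes were, and 3 of 12 at day 3, where 3.09% were.

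Cycling and other precursors of 1 library are likewise set side by side as a description. All 21 measured genes of G2 and M phase were at least 2-fold higher in cycling cells at day 3, where 6.35% of all measured genes were, and 13 of 13 at day 7, where 7.69% were. Pclaf stood at 679.8 against 116 CPM at day 3 and 805 against 51.7 at day 7. Cdkn2c was higher in cycling cells, at 267 against 83.6 CPM at day 3 and 532 against 49.8 at day 7, while Cdkn1c was lower, at 45.6 against 98.3 and 51.9 against 116 CPM. Gpr17 stood at 186 against 585 CPM at day 3 and 143 against 426 at day 7, and Pdgfra at 348 against 370.4 and 428 against 415. Pdgfra levels thus lay close together in cycling and other cells, and Gpr17, which the split did not use but the gate did, was lower in cycling ones. Pdgfra did not stand for the precursor identity list. Its 23 genes other than Pdgfra and Cspg4 had a median log2 ratio of -0.68 in cycling cells at day 3, beside -0.06 over all measured genes. There 0 were at least 2-fold higher and 4 lower (Sox8, Sox5, Neu4 and Luzp2). At day 7 the median was 0.01 beside -0.09, with 0 higher and 2 lower.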

How the data were processed

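Single-cell RNA-seq libraries of spinal cord cells, 1 a group, were deposited as tables of raw UMI counts per gene and cell. Cell Ranger 3.0.2 is named per the submitters' processing notes, and the genome build is not given in the sources used here. All cells passed the filters used here (at least 200 genes and 500 UMIs, at most 20% mitochondrial). All columns were mapped to a sample. Gene names were joined across libraries, and 77 names of the intact and day 1 tables could not be joined and were left out.

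Counts were summed over the gated cells of a library and scaled to 1000000. Ratios carry exact binomial intervals, CPM exact Poisson intervals and shares Clopper-Pearson intervals. A fold against 0 counts took 3 counts per library as the floor. Genes needed 50 UMIs over both sums, and members of lists 20. No test was made, because each group is 1 library. The gate, the 23 lists and the comparisons were chosen with earlier results of these data known.

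Named genes were the 12 with the highest and the 12 with the lowest log2 ratio of CPM + 50 (5 each way for day 7 against day 1). They needed 100 CPM where higher, at least 0.5 of the level outside the gate there, and no cell with over 20% of the UMIs there. Mitochondrial, ribosomal, haemoglobin and clone-named genes, gate genes and other classes' markers were left out. Up to 4 members of a list with the largest ratio were candidates for the text, and further members were chosen after their values were seen. Some of the genes so chosen are not reported here. Shares were repeated with each cell thinned to 1000 UMIs. Scrublet marked 0.0363% to 0.270% of the cells and 0 precursors, so it did not work here and doublets were kept unless the gate removed them.

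The calculation of ratios was checked on simulated data with 200 genes changed 4-fold, of which 99% to 100% were found at least 2-fold changed in each comparison. The simulated counts held counting error only. They had no spread between cells or animals, so they cannot show how far such spread moves the ratios. Alternatives covered the gate's thresholds, cells with other markers, depth, the UMI minimum and the scaling (TMM, median of ratios). Tools were Python 3.11.15, numpy 2.4.6, scipy 1.17.1, matplotlib 3.10.9, scanpy 1.11.5, R 4.3.3 and edgeR 4.0.16, the last for TMM factors only.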

Additional observations from a re-analysis of the deposited data

How the results depend on the processing

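No paired analysis was possible because each group holds 1 library, and for the same reason no replicate could be left out. The alternatives that kept only cells neither cycling nor committed, or left out the 5% of cells with the highest Scrublet score, were chosen after seeing the data. Over all alternatives 170 of 188 shares, 181 of 225 gene counts, 1662 of 1690 list medians and 1289 of 1450 named gene ratios stayed within the tolerance used. The tolerance was counting error for shares and ratios, and a fixed fold for gene counts. For a list median it was the typical counting error of a single member gene. That is a looser bound than the counting error of the median itself. Direction was checked only for medians and ratios of at least 2-fold. Some alternatives could not move a result, such as leaving out Scrublet doublets, which held 0 precursors. Thinning kept 27 named gene ratios and moved 31, and cells neither cycling nor committed kept 29 and moved 29. The precursor share at day 1 was 1.33% with the panel minimum at 5 per 10000 and 0.829% with it at 20. With at most 5 C1q UMIs per 10000 the shares were 1.43% at day 3 and 1.07% at day 7. Without cells with astrocyte markers they were 0.617%, 0.679%, 1.46% and 2.36% from intact to day 7, and without cells with vascular or neutrophil markers 2.24% at day 7. Thinned to 1000 UMIs, cycling cells were 0% in the intact library, 9.61% at day 3 and 5.09% at day 7, and committed cells 36.7% and 26.9% at days 3 and 7. With at least 2 UMIs of Mki67 and Top2a cycling cells were 0% at day 1 and 17.5% at day 3, and with a margin of 2 UMIs committed cells were 41.8% at day 3 and 22.2% at day 7. Genes at least 2-fold apart numbered 632, 285 and 607 for day 3 against day 1, day 7 against day 3 and day 7 against day 1. They were 1347, 757 and 972 after thinning, 1439, 843 and 1344 with a minimum of 20 UMIs, 160, 54 and 161 with 200, and 4326, 3466 and 4761 with no minimum, so the count follows the depth asked of a gene. In cells not committed 506 genes differed for day 7 against day 3, and in cells neither cycling nor committed 963 for day 3 against day 1 and 618 for day 7 against day 3, among the genes measured in all precursors and so with fewer UMIs. With the C1q bound at 5 the day 7 against day 3 medians turned to -0.00224 for myelin and -0.445 for the interferon response, and the G2 and M phase median for day 7 against day 1 was -0.0545 after thinning; the cause was not tested. The 27 intact precursors hold 85491 UMIs, which limits every intact value.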
